A study of Mus musculus with 18 samples.

Results

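A set of 9 genes, 6 of the contractile cytoskeleton and 3 secreted proteins known as targets of the YAP and SRF transcription pathways, was followed through all 18 libraries of a mouse reprogramming series. They are the contractile genes Acta2, Tagln, Cnn1, Myl9, Tpm1 and Tpm2 and the secreted matricellular genes Ctgf, Cyr61 and Thbs1. They were taken from the table by gene symbol, but the set was chosen with earlier results of these data known. All 9 of 9 symbols were found, each on 1 row, among 36655 gene symbols in the expression table. In fibroblasts all 9 were abundant before culture and stood at 2.48% to 32.2% of that level after 2 or 4 days with doxycycline. In blood stem and progenitor cells Tpm1 was present in every library and Thbs1 in 14 of 15, the other 7 were listed at 0 or low in most libraries, and Cyr61 was higher with doxycycline than without it in 5 of 6 matched pairs.

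Contractile cells build actin filaments that carry tropomyosins, calponin and transgelin and that are pulled by myosin, whose activity depends on its regulatory light chain. The genes of this apparatus are classic targets of serum response factor (SRF), which binds CArG boxes and is switched on by myocardin-related cofactors when free actin monomer falls. YAP and TAZ are co-activators that the Hippo kinases hold in the cytoplasm. When cells spread and build tension they enter the nucleus, bind TEAD factors and raise genes such as Ctgf and Cyr61, and the SRF and YAP pathways share a good part of their targets. Fibroblasts in culture are known for high activity of both pathways, whereas blood cells are round, weakly adherent and poor in stress fibres.

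The study asked how blood cells and fibroblasts differ early in reprogramming to induced pluripotent stem (iPS) cells, and every cell came from C57BL/6 all-iPS mice that carry Oct4, Sox2, Klf4 and c-Myc in the genome under doxycycline control. Long-term hematopoietic stem cells (LT-HSC), their short-term counterparts (ST-HSC) and MP, myeloid progenitor cells, were each taken uncultured, after 2 or 4 days of culture without doxycycline (N) and after 2 or 4 days with it (D), which gave 15 blood libraries. Fibroblasts, whose tissue of origin and age are not stated, were taken uncultured and after 2 and 4 days with doxycycline, which gave 3 libraries and no culture control, so culture and factor induction cannot be told apart in them. Controls and induced cells alike carry the transgenes, every condition is 1 library, and the labels do not say how many animals were used. Titles set the groups: the doxycycline field reads yes in all 6 N libraries, although the design text describes them as taken without it.

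Values are FPKM, fragments counted per transcript length and per total of mapped fragments. Summed FPKM ran from 677649 to 767866 in the blood libraries and from 524225 to 572069 in the fibroblast libraries, and the sequencing depth is unknown. Each blood library was made from 25 hand-picked cells with PCR-amplified cDNA, and the fibroblast libraries were made from bulk RNA by a standard protocol, so library method and cell type cannot be told apart. Gapdh, which every cell uses, was low throughout this table, at most 7.34 FPKM in a blood library and 22.6 in a fibroblast library. It was listed at 0 in 2 libraries, so a 0 is given only as listed. The labels were checked against marker genes: 8 fibroblast markers summed to 10929 FPKM in uncultured fibroblasts and to at most 33.4 FPKM in a blood library, and 7 pan-blood markers summed to 2191 to 2923 FPKM in uncultured blood cells and to at most 1.68 FPKM in fibroblasts.

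Promoters are shown for the members whose windows held a motif of either pathway, because the 9 genes fell together in fibroblasts. Of the 9 genes, 6 were matched in the RefSeq promoter table of build GRCm38.p6 (Cyr61 under its newer symbol Ccn1); Tagln, Ctgf and Thbs1 were not matched. Each line gives the 250 bases before the transcription start, 5′ to 3′ on the gene's strand, at chr2:156775214-156775463 (plus strand) for Myl9, chr19:34255374-34255623 (minus strand) for Acta2, chr9:67049214-67049463 (minus strand) for Tpm1 and chr3:145649986-145650235 (minus strand) for Cyr61. Capitals mark a CArG box, a CArG-like site with 1 core letter changed, or the TEAD motif GGAATG, which reads CATTCC on the other strand.
Myl9: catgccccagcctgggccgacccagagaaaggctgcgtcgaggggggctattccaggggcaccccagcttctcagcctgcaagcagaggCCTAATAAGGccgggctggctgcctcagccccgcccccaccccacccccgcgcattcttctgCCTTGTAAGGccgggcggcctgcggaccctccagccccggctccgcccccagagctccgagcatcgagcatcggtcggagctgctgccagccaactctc
Acta2: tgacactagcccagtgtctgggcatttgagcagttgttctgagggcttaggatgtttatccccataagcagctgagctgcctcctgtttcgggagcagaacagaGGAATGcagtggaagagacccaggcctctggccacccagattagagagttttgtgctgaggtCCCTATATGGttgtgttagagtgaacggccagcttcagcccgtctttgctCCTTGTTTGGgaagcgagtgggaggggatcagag
Tpm1: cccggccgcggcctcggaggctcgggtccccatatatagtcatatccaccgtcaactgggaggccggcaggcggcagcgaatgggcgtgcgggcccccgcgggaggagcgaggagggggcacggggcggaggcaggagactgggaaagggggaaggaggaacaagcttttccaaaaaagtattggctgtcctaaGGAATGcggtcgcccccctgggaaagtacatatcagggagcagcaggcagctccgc
Cyr61: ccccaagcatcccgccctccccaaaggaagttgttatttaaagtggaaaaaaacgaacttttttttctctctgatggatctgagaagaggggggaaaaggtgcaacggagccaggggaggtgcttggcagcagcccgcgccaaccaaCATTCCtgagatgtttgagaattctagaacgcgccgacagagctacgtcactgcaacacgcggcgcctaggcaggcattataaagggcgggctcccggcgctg

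The search covered 250 bases before to 50 bases after each start, on both strands, and the motifs do not overlap here. Myl9 held a CArG box, CCTAATAAGG, which starts 161 bases before the transcription start, and a CArG-like site, CCTTGTAAGG, at 99 bases before it. Acta2 held CArG-like sites at 84 bases (CCCTATATGG) and 34 bases (CCTTGTTTGG) before the start, and GGAATG at 146 bases before it. Tpm1 held GGAATG at 56 bases before the start, and Cyr61 held it on the other strand at 103 bases before the start. The windows of Cnn1 and Tpm2 held none of these letters. Among 32851 promoter windows of the same length, 1.63% held a CArG box, 8.5% a CArG-like site and 14.66% GGAATG on either strand. A match is a run of letters and not a measured binding site.

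In uncultured fibroblasts the 9 genes ranked among the highest in the table. Acta2 (ENSMUSG00000035783), smooth-muscle α-actin, was at 2996 FPKM and ranked 7th of all genes. Thbs1 ranked 27th, Tpm2 35th, Tpm1 41st, Tagln 46th and Myl9 55th, while Ctgf (262nd), Cyr61 (317th) and Cnn1 (911th) stood lower. Together the 9 made up 1.84% of summed FPKM in uncultured fibroblasts, 0.162% at day 2 with doxycycline and 0.240% at day 4, from member sums of 9630, 925.1 and 1347 FPKM.

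**Figure D1:**
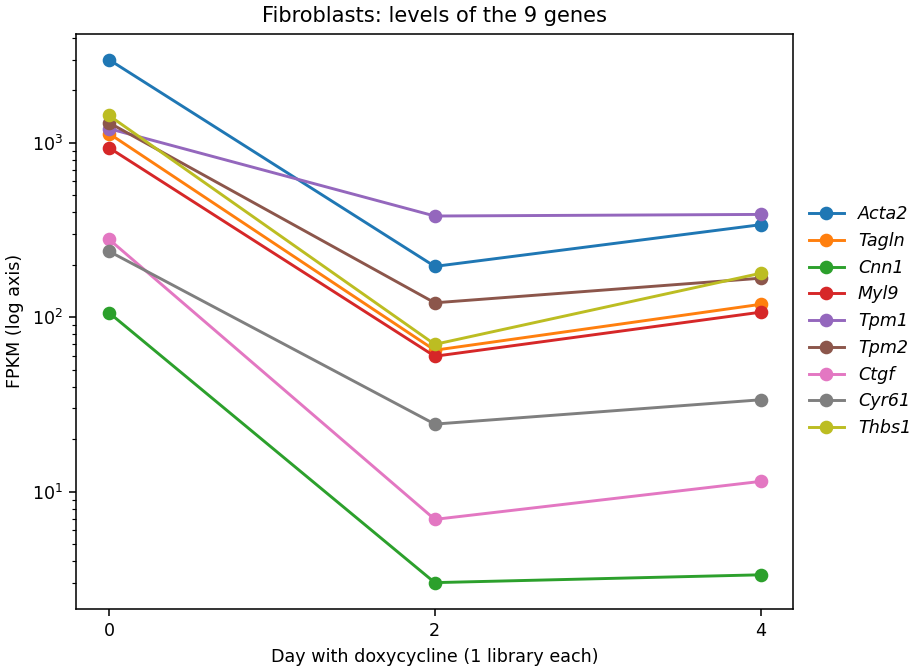
FPKM (log axis) of the 9 genes in the 3 fibroblast libraries, by day with doxycycline; each point is 1 library and lines join the points of a gene. Every line drops between day 0 and day 2 and is higher at day 4 than at day 2, and Tpm1, at 1205, 380.2 and 388.3 FPKM, drops least.

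Among the filament and motor genes, Acta2 stood at 2996 FPKM uncultured, 195.5 at day 2 and 339 at day 4, which left 6.53% and 11.3% of the starting level. Myl9 (ENSMUSG00000067818), the regulatory light chain of smooth-muscle and non-muscle myosin II, followed nearly the same course at 937.1, 59.7 and 106.8 FPKM. Both were lowest at day 2, 15.3-fold and 15.7-fold below the uncultured library, and 8.84-fold and 8.78-fold below it at day 4. In bulk RNA such as this, fewer cells of a type and less RNA per cell cannot be told apart.

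Of the actin-binding genes, Tagln (ENSMUSG00000032085), which encodes transgelin or SM22α, was at 1130 FPKM uncultured, 64.7 at day 2 and 118.5 at day 4. Cnn1 (ENSMUSG00000001349), calponin 1, which restrains actomyosin, was at 106.1, 3.01 and 3.33 FPKM. Cnn1 thus ended 35.3-fold and 31.8-fold lower, the deepest fall of the 6 contractile genes at both days, and it differed little between the days (1.11-fold), whereas Tagln was 1.83-fold higher at day 4 than at day 2. The tropomyosins, which lie along the actin filament and gate myosin, were split: Tpm2 (ENSMUSG00000028464) was at 1303, 120.9 and 167.3 FPKM, and Tpm1 (ENSMUSG00000032366) at 1205, 380.2 and 388.3 FPKM. Tpm1 was therefore 3.17-fold and 3.10-fold lower, the smallest difference of the 9 and short of 4-fold, and its day 2 and day 4 values differed 1.02-fold.

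The matricellular genes fell as far. Ctgf (ENSMUSG00000019997), connective tissue growth factor or CCN2, was at 279.8 FPKM uncultured, 6.93 at day 2 and 11.4 at day 4, which is 40.4-fold and 24.5-fold lower. Cyr61 (ENSMUSG00000028195), its relative CCN1, was at 238.7, 24.4 and 33.6 FPKM, which is 9.79-fold and 7.10-fold lower. Thbs1 (ENSMUSG00000040152), thrombospondin 1, an inhibitor of angiogenesis and activator of latent TGF-β, was at 1434, 69.9 and 178.5 FPKM. Ctgf had the deepest fall of all 9 genes at day 2, and Thbs1 the largest rise between the days, 2.56-fold.

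With 1 library a condition there was no test in fibroblasts, and a change was called where FPKM + 1 differed at least 4-fold in the same direction at both days. By this rule 8 of the 9 genes were lower, Tpm1 being the exception, and none was higher. Of 12440 genes compared, 4.12% were lower by the same rule and 3.18% were higher. The median mean log2 change was -3.54 for the 9 genes and 0.31 for all genes compared. All 9 were higher at day 4 than at day 2, by 1.02-fold to 2.56-fold, a direction shown by 51.1% of the genes compared.

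Other genes of the same apparatus were lower alongside them in fibroblasts. Of 28 further contractile and SRF target genes, 26 were compared, 14 were lower by the 4-fold rule and none was higher, with a median log2 change of -2.27. By the same rule 4.12% of all genes compared were lower and 3.18% higher. Actg2, the enteric smooth-muscle actin, was at 332.5, 17.4 and 28.1 FPKM (uncultured, day 2, day 4), and Lmod1, leiomodin, at 40.5, 0.872 and 1.65 FPKM. Cald1, caldesmon, was at 1931, 383.9 and 464.2 FPKM, and Myh9, the non-muscle myosin heavy chain, at 1251, 161.2 and 206.0 FPKM. The cytoskeletal tropomyosin Tpm3, by contrast, stood at 50.5, 52.8 and 45.7 FPKM. These 5 examples were picked after their values were seen. Actins, tropomyosins and calponins have close relatives, and how the authors' counting split shared reads between them is not given in the sources used here, so the split between relatives is uncertain.

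Of 22 further YAP/TAZ-TEAD targets 20 were compared, and 4 were lower by the rule with a median of -1.10: Ankrd1 (36.2 FPKM uncultured and listed at 0 at both days), Amotl2 (168.6, 17.5 and 21.0 FPKM), Axl (596.4, 91.0 and 109.9 FPKM) and F3 (102.3, 7.35 and 8.18 FPKM). Of 8 relatives of the matricellular members 5 were compared and 4 were lower, with a median of -3.69; the 4 were Nov, Wisp1, Wisp2 and Thbs2. None was higher in either list, and of all genes compared 4.12% were lower and 3.18% higher.

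The pathway machinery itself moved less. Of 17 Hippo and YAP/TEAD machinery genes, all compared, none was called in either direction and the median was 0.07. Yap1, the co-activator, was at 61.2, 70.8 and 58.6 FPKM, and Wwtr1, which encodes TAZ, at 34.9, 34.9 and 35.4 FPKM. Of the DNA-binding partners, Tead1 was at 154.6, 70.8 and 64.2 FPKM and Tead2 at 119.7, 79.7 and 73.7 FPKM. Tead3 was at 34.6, 6.40 and 8.26 FPKM and missed the rule only at day 4 (log2 change -1.94). Wwc1, in the same list, was higher with doxycycline, at 9.06, 38.5 and 21.55 FPKM. Of the 17 genes, 7 had a mean log2 change below 0.

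Most fibroblast markers were lower over the same days. The 8 fibroblast markers summed to 10929 FPKM uncultured, 567.7 at day 2 and 1801 at day 4, 6 of 8 were lower by the 4-fold rule, and their median log2 change was -3.38, close to the -3.54 of the 9 genes. Col1a1, a collagen I chain, was at 5436, 258.4 and 708.2 FPKM. The exceptions to the rule were Dcn, decorin, at 36.5, 10.99 and 70.0 FPKM, above its uncultured level at day 4, and Pdgfra, a growth factor receptor, which was at 40.5 FPKM at day 4 against 64.5 uncultured. Smooth muscle and pericyte markers summed to 62.6, 12.4 and 12.2 FPKM, with 2 of 4 compared lower. By the rule 4.12% of all genes compared were lower. The part of a changed cell mixture in the falls was not tested.

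**Figure D2:**
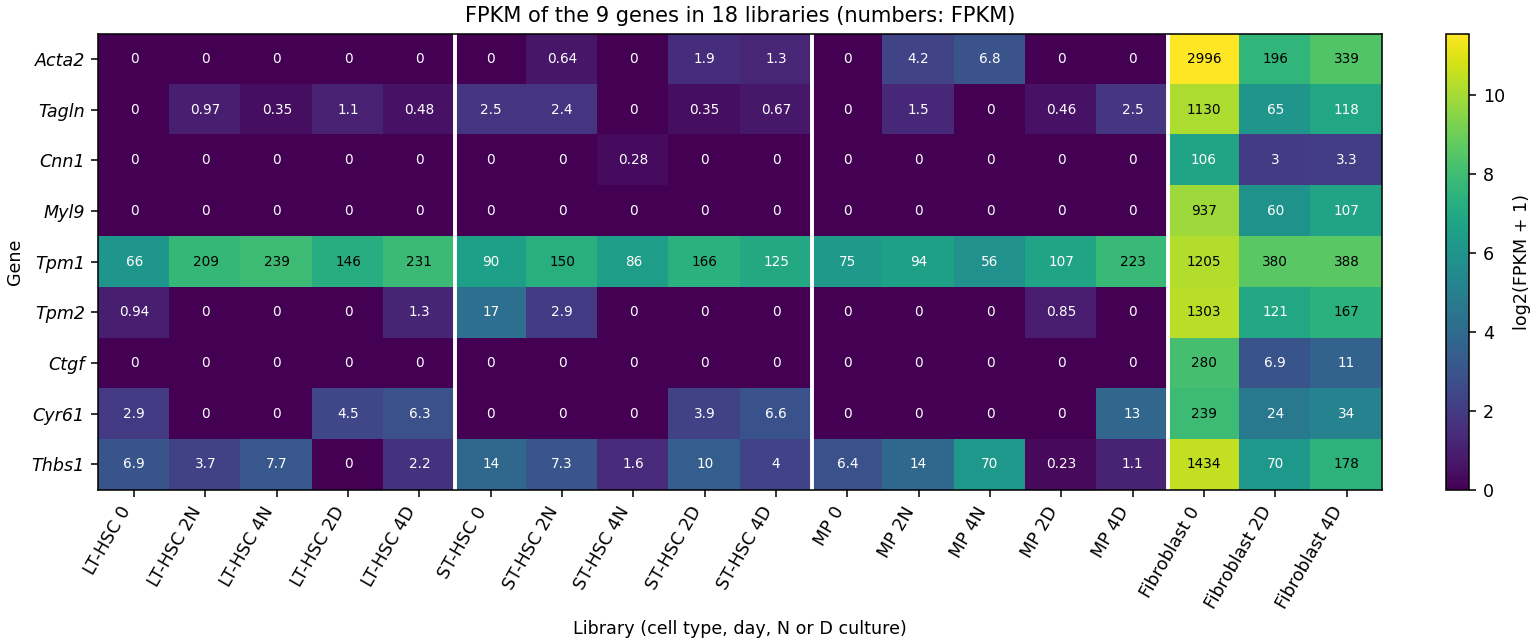
Level of the 9 genes in all 18 libraries, coloured by log2(FPKM + 1), genes in rows and libraries in columns grouped by cell type. The fibroblast columns are filled for all 9 genes, most strongly in the uncultured library, while in the blood columns only Tpm1 is high throughout and Myl9 and Ctgf are listed at 0 in all 15.

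In blood cells most of the 9 genes were listed at 0 or at low values, with Tpm1 and Thbs1 as exceptions. Myl9 and Ctgf were listed at 0 in all 15 blood libraries, and Cnn1 in 14 of them, with 0.283 FPKM in ST-HSC 4N. Tagln was above 0 in 11 of 15 but never above 2.52 FPKM. Tpm2 was listed at 0 in 10 libraries and was at 17.5 FPKM in uncultured ST-HSC, 2.87 in ST-HSC 2N, 1.31 in LT-HSC 4D, 0.942 in uncultured LT-HSC and 0.849 in MP 2D. Uncultured ST-HSC thus stood apart from all other blood libraries for Tpm2, with no replicate to set it against.

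Tpm1 was present in every blood library. It was at 65.8 FPKM in uncultured LT-HSC, 89.7 in ST-HSC and 75.3 in MP. In N cultures it was at 208.8 and 239.1 FPKM in LT-HSC (day 2 and day 4), 150.4 and 86.3 in ST-HSC, and 94.2 and 55.7 in MP. In D cultures it was at 146.1 and 231.4 FPKM in LT-HSC, 165.6 and 125.3 in ST-HSC, and 107.4 and 222.6 in MP. Cultured LT-HSC were higher than uncultured ones under all 4 conditions, and N and D values overlapped widely. Tpm1 alone made up 41.9% to 98.6% of the summed FPKM of the 9 genes in a blood library, the lowest share being in MP 4N.

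Acta2 was listed at 0 in 10 blood libraries and was at 0.639 FPKM in ST-HSC 2N, 1.87 in ST-HSC 2D, 1.34 in ST-HSC 4D, 4.20 in MP 2N and 6.77 in MP 4N. Thbs1 was at 6.94, 14.2 and 6.38 FPKM in uncultured LT-HSC, ST-HSC and MP. In N cultures Thbs1 was at 3.73 and 7.73 FPKM in LT-HSC (day 2 and day 4), 7.33 and 1.62 in ST-HSC, and 13.7 and 70.3 in MP. MP 4N was thus the highest blood library for both genes. It was also the highest of all libraries for macrophage markers, whose 6 genes summed to 2174 FPKM there and to at most 352.2 FPKM elsewhere, and the part of such cells in the Acta2 and Thbs1 values was not tested. Of the smooth muscle and pericyte markers, Myh11, Des and Rgs5 were listed at 0 in all 15 blood libraries. Cspg4 was listed at 0 in 10 of them and Notch3 in 12. Smtn was above 0 in all 15, at 0.723 to 14.75 FPKM. The whole list summed to 1.56 FPKM (LT-HSC 4D) to 18.1 FPKM (MP 4D) in blood libraries.

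Doxycycline against its absence was tested over 6 pairs of blood libraries, matched by cell type and day, with limma on log2(FPKM + 1). These p-values treat cell types and days as the replicates, and whether separate animals or cultures lie behind them is not stated. Of the 9 genes, 4 had a mean of at least 1 FPKM in these libraries and were tested (Acta2, Tpm1, Cyr61 and Thbs1); 1 of the 4 was higher with doxycycline and none was lower. Of all 12254 genes tested, 4.53% were higher and 4.44% lower. The 1 higher gene was Cyr61, whose call is a description because it passed the filter through its D libraries alone.

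Cyr61 was listed at 0 in all 6 N libraries. With doxycycline it was at 4.5 and 6.25 FPKM in LT-HSC (day 2 and day 4), 3.91 and 6.57 in ST-HSC, and 0 and 13.1 in MP, and the only uncultured library above 0 was LT-HSC at 2.92. Cyr61 was higher with doxycycline in 5 of 6 pairs and equal at 0 in MP day 2, with a log2 difference of 2.39 ± 0.527 (SE, n = 6 pairs; limma adjusted p = 0.0226). The gene passed the filter through its D libraries alone, and with N at 0 the size of the difference depends on the 1 FPKM added before taking logs. Its p-value is therefore a description of where the gene was listed above 0. The call rested on each of 4 pairs: with 1 left out, the limma adjusted p was 0.0608 (day 2 of LT-HSC), 0.0641 (day 4 of LT-HSC), 0.0615 (day 4 of ST-HSC) or 0.0738 (day 4 of MP).

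Thbs1 with doxycycline was at 0 and 2.23 FPKM in LT-HSC (day 2 and day 4), 10.03 and 3.97 in ST-HSC, and 0.234 and 1.15 in MP. D was below N in LT-HSC and MP at both days and above it in ST-HSC at both days. The log2 difference was -1.83 ± 0.743 (SE, n = 6 pairs) and did not pass (limma adjusted p = 0.165). Tpm1 differed by 0.38 ± 0.295 (limma adjusted p = 0.486; higher in 4 of 6 pairs) and Acta2 by -0.55 ± 0.638 (limma adjusted p = 0.661; higher in 2, lower in 2 and equal in 2).

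**Figure D3:**
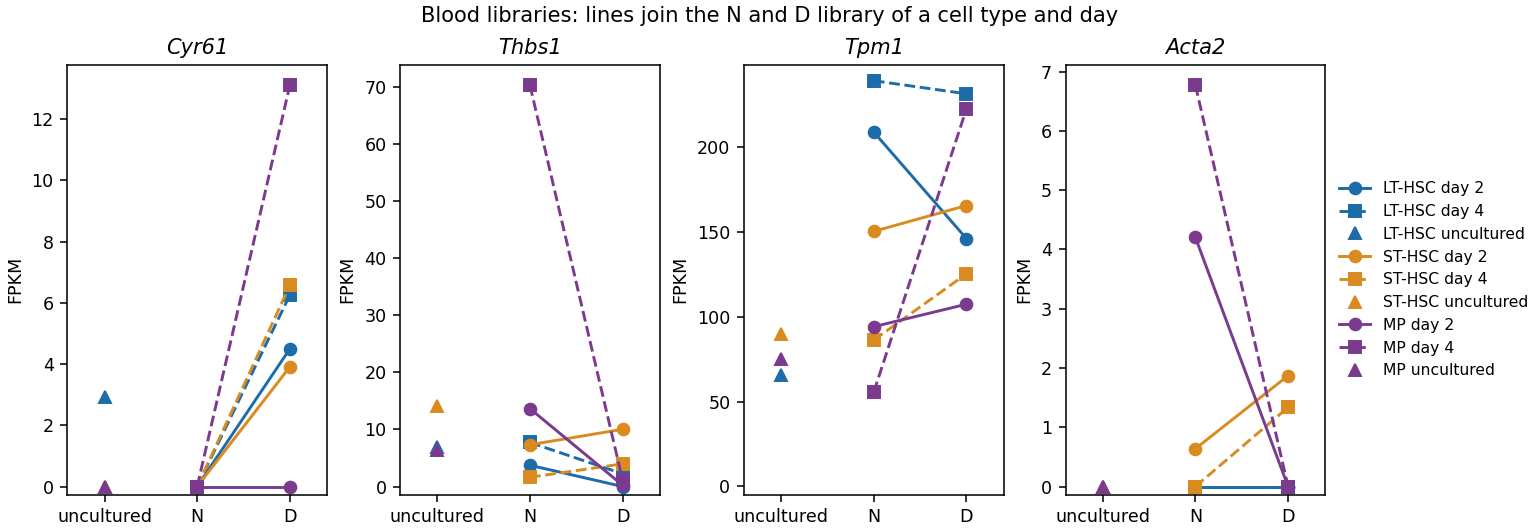
FPKM of Cyr61, Thbs1, Tpm1 and Acta2 in the 15 blood libraries, 1 point a library; lines join the N and D libraries of a cell type and day, and triangles are uncultured cells. Cyr61 rises from 0 in 5 of 6 pairs and Thbs1 is lower in 4 of 6, with the MP day 4 pair, from 70.3 to 1.15 FPKM, as the steepest.

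Some other YAP pathway genes were higher with doxycycline in blood cells. Among 22 YAP/TAZ-TEAD targets 13 were tested, 5 were higher and none lower, beside 4.53% and 4.44% of all genes, and the median log2 difference was 1.22 against 0.02 for all genes tested. The other 8 did not pass, Nuak2 (-0.41), Asap1 (-0.51), Nt5e (-0.17) and Dock5 (-0.57) among them. Amotl2, angiomotin-like 2, was at 5.64 to 21.5 FPKM in the 6 D libraries and at 0 to 0.81 FPKM in the 6 N libraries (log2 difference 3.37 ± 0.395, limma adjusted p = 0.00129). Uncultured LT-HSC, ST-HSC and MP had 12.6, 4.14 and 4.31 FPKM of Amotl2, within the range of the D libraries or just below it. Tgfb2, the growth factor TGF-β2, was at 1.34 to 24.9 FPKM in D and listed at 0 in all N libraries (limma adjusted p = 0.00501). Fjx1 (2.08, limma adjusted p = 0.0223), Myof (2.05, limma adjusted p = 0.0420) and the receptor kinase Axl (1.86, limma adjusted p = 0.0261) passed with all pairs. All 5 averaged under 1 FPKM over the N libraries and so, like Cyr61, passed the filter through their D libraries, which leaves their count and p-values as a description. Amotl2 and Tgfb2 kept an adjusted p under 0.05 whichever pair was left out. Fjx1 reached 0.0758 without MP day 2 and missed too when day 2 of LT-HSC, day 4 of ST-HSC or day 4 of MP was left out, Axl reached 0.0801 without MP day 4 and passed only without LT-HSC day 2, and Myof, at 0.121 without LT-HSC day 2, missed without any pair.

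The machinery list gave 3 higher and none lower of 15 tested, beside 4.53% and 4.44% of all genes, with a median of 0.72. Yap1 was at 8.54 and 39.6 FPKM in LT-HSC with doxycycline (day 2 and day 4), at 0 and 8.72 in ST-HSC and at 5.96 and 31.5 in MP, while the N libraries were listed at 0 apart from 0.32 FPKM in ST-HSC 4N. Tead1 was at 9.65 and 49.1 FPKM in LT-HSC, 0 and 14.7 in ST-HSC and 1.20 and 21.5 in MP, and was listed at 0 in every N and every uncultured blood library. Both were higher at day 4 than at day 2 in all 3 cell types. The log2 differences were 3.22 ± 0.66 for Yap1 (limma adjusted p = 0.0173) and 2.90 ± 0.429 for Tead2 (limma adjusted p = 0.00367), and Tead1 passed at 0.0266. Tead1, at 0 in every N library, and Yap1, at 0 in 5 of 6, passed the filter through their D libraries alone, so the sizes depend on the 1 FPKM added and the calls are a description of where the genes were listed above 0. Tead2 passed whichever pair was left out. Yap1 stood at 0.0502 without LT-HSC day 4 and 0.0546 without MP day 4, and Tead1 at 0.0687 or 0.0757 without day 2 or day 4 of LT-HSC, and at 0.0724 or 0.0822 without day 4 of ST-HSC or MP.

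**Figure D4:**
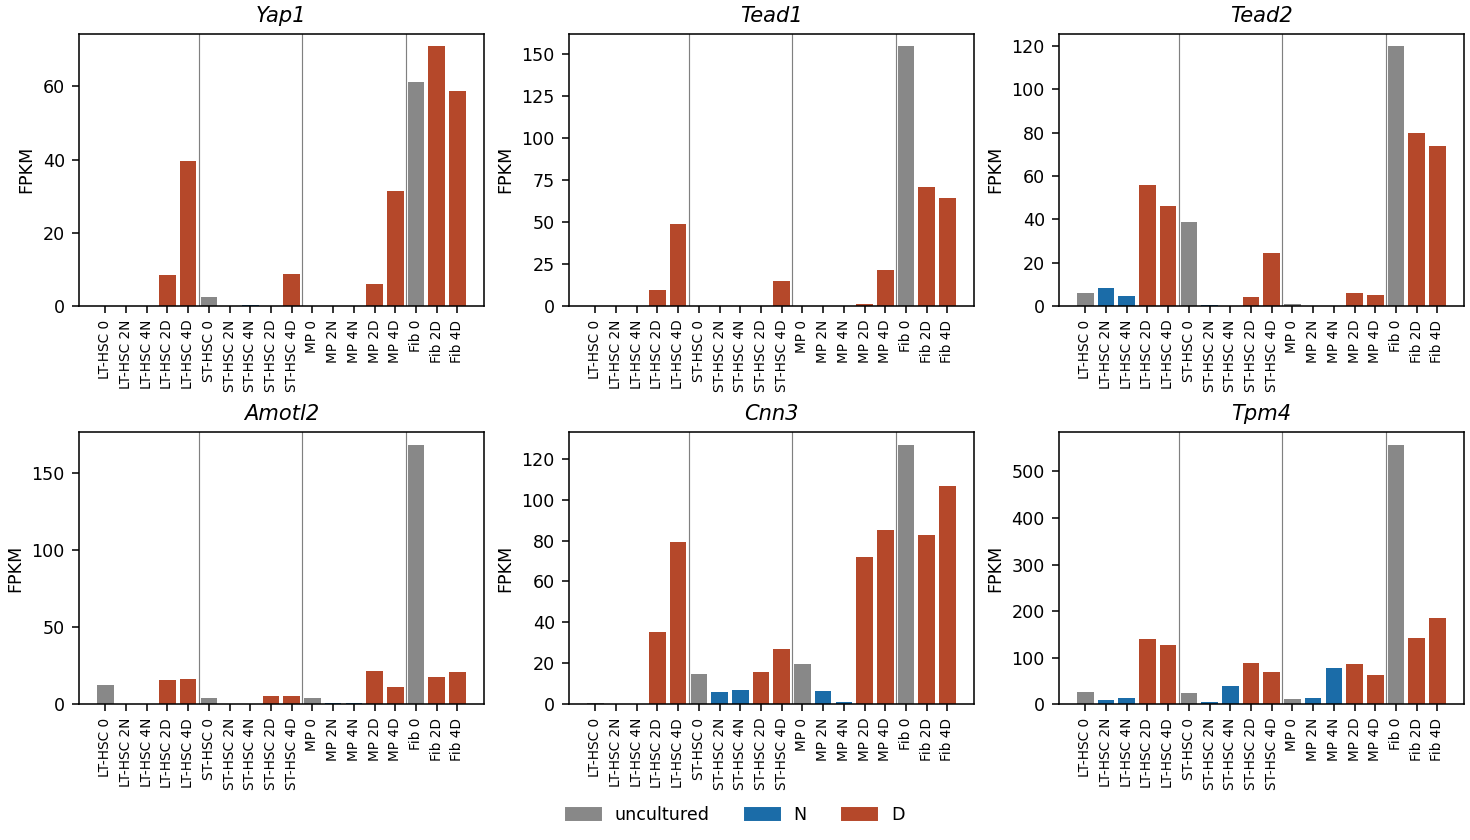
FPKM of Yap1, Tead1, Tead2, Amotl2, Cnn3 and Tpm4, 1 bar a library, with cell types divided by lines and colours for uncultured, N and D; each panel has its own axis from 0. In blood cells the Yap1 bars outside D libraries reach at most 2.46 FPKM (uncultured ST-HSC), Tead1 has none there, and both are tallest in LT-HSC 4D, at 39.6 and 49.1 FPKM.

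Of 28 further contractile genes 24 were tested, 4 were higher and 1 lower, beside the 4.53% and 4.44% of all genes, and the median was -0.31. Cnn3, the acidic calponin, was at 15.8 to 85.0 FPKM in D and 0 to 7.26 FPKM in N (3.78 ± 0.639, limma adjusted p = 0.00703). Filip1l (2.77, limma adjusted p = 0.0102) and the Z-line adaptor Pdlim5 (2.00, limma adjusted p = 0.00855) were higher too, and these 3 genes passed whichever pair was left out. Tpm4, a cytoskeletal tropomyosin, was higher with all pairs (2.33, limma adjusted p = 0.0265), and reached 0.0854 without MP day 2, also missing when day 2 or day 4 of LT-HSC or day 2 of ST-HSC was left out. Myh9 was the 1 gene lower with all pairs (-1.29, limma adjusted p = 0.0450), and it missed at 0.0692 to 0.132 when any 1 pair was left out. Actg2 was listed at 0 in all blood libraries but LT-HSC 4D and MP 4D, at 11.6 and 11.7 FPKM; it was chosen after its values were seen.

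In the list of matricellular relatives, 2 of 8 were tested and neither passed, both with an unadjusted limma p under 0.05: Thbs3 (2.08, limma adjusted p = 0.0611) and Nov, or CCN3 (-3.01, limma adjusted p = 0.0957). Without the ST-HSC day 2 pair, Thbs3 passed (limma adjusted p = 0.0357).

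**Figure D5:**
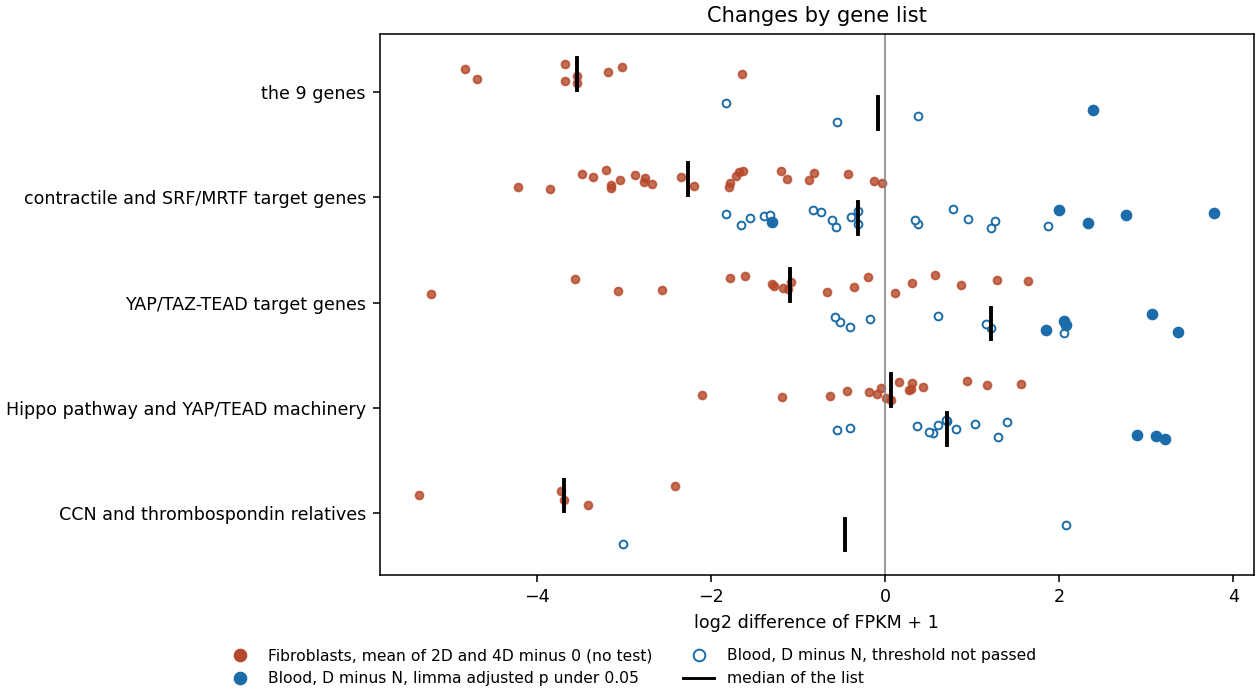
Log2 difference of FPKM + 1 for the 9 genes and 4 lists of pathway genes, 1 point a gene: fibroblasts with doxycycline (mean of both days) minus uncultured, and blood D minus N, with filled blue points past the threshold and a black bar at each list's median. The 9 genes have medians of -3.54 in fibroblasts and, for the 4 tested, values from -1.83 to 2.39 in blood.

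Blood identity markers moved with doxycycline as well, and their part in these differences was not tested. The 7 pan-blood markers summed to 2943 to 4774 FPKM in the N libraries. With doxycycline they summed to 293.6 FPKM in LT-HSC 2D, 27.6 in LT-HSC 4D, 308.6 in MP 2D and 6.07 in MP 4D, against 2882 in ST-HSC 2D and 2272 in ST-HSC 4D. Fibroblast markers stayed low: their sum was 0 in LT-HSC 4D and ST-HSC 4D and at most 6.51 FPKM in the other D libraries apart from MP 2D, at 33.4 FPKM, of which 32.3 came from Col1a2. Dcn, Lum and Postn were listed at 0 in all 6 D libraries. Megakaryocyte and platelet markers summed to 14.4 to 594.7 FPKM in N and 0 to 8.12 FPKM in D, macrophage markers to 106.3 to 2174 FPKM in N and at most 74.0 FPKM in D (2174 in MP 4N against 16.9 in MP 4D, the pair in which Thbs1 and Acta2 dropped most), and endothelial markers to 8.74 to 178.1 FPKM in N and 0.262 to 180.5 FPKM in D.

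Whether the doxycycline difference changed between days was tested in the same libraries. None of the 4 genes tested passed, none had an unadjusted limma p under 0.05, and of all genes 0.00% were called higher and 0.00% lower (511 of 12254 had an unadjusted p under 0.05). The day 4 minus day 2 change of the difference was 1.61 ± 0.972 for Cyr61 (limma adjusted p = 0.989), 0.88 ± 0.547 for Tpm1 (0.989), -0.05 ± 1.35 for Acta2 (0.999) and -0.05 ± 1.57 for Thbs1 (0.999).

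Culture without doxycycline was compared with uncultured cells over 9 libraries. Again 4 of the 9 genes were tested with limma and none passed or had an unadjusted p under 0.05, beside 5.80% of 12060 genes higher and 3.08% lower. Tpm1 averaged 139.1 ± 73.2 FPKM (SD, n = 6) in N and 76.97 ± 12.03 FPKM (SD, n = 3) uncultured, a log2 difference of 0.68 ± 0.371 (limma adjusted p = 0.267). Tpm2 differed by -1.40 ± 0.728 (limma adjusted p = 0.245), Acta2 by 1.01 ± 0.655 (0.344) and Thbs1 by 0.04 ± 0.768 (0.979). Tpm2 passed the filter through uncultured ST-HSC, at 17.5 FPKM, the other libraries being at 2.87 or below. All-gene scaling matters here, since scaling by median of ratios moved the median of all genes from 0.17 to -0.04, and Tpm1 then differed by 0.45. Without LT-HSC the Tpm1 difference was 0.14.

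Myeloid progenitors were compared with the 2 stem cell types across all 5 conditions. None of the 4 genes tested passed or had an unadjusted limma p under 0.05, beside 0.0402% of 12453 genes higher in MP and 0.257% lower. The log2 differences were -0.49 ± 0.287 for Tpm1 (limma adjusted p = 0.484), -0.66 ± 0.603 for Tpm2 (0.663), -0.49 ± 0.475 for Cyr61 (0.686) and 0.44 ± 0.723 for Thbs1 (0.825). Here too Tpm2 passed the filter through uncultured ST-HSC, at 17.5 FPKM.

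Fibroblasts were compared with the 3 blood cell types in uncultured, 2D and 4D libraries, 12 in all. All 9 genes were tested and were called higher in fibroblasts, where 19.5% of 13235 genes were higher and 14.9% lower. Of these, Myl9, Ctgf, Cnn1, Acta2 and Tagln passed the filter through fibroblasts alone, so their calls add no support. Acta2 averaged 0 FPKM in uncultured and 0.53 in D blood libraries, and Tagln 0.82 and 0.93 FPKM. As a description, the log2 difference was 8.89 ± 0.714 for Acta2 and 6.92 ± 0.723 for Tagln. It was 7.42 ± 0.761 for Tpm2 (limma adjusted p = 2.09e-05), 5.97 ± 0.689 for Thbs1 (5.2e-05) and 4.08 ± 0.881 for Cyr61 (0.00348). In the blood libraries of this fit Tpm2 was at 17.5 FPKM in uncultured ST-HSC and at most 1.31 elsewhere. Tpm1 differed least, by 2.16 ± 0.438 (limma adjusted p = 0.00234). Myl9, Ctgf and Cnn1 were listed at 0 in these 9 blood libraries, so no fold or p is given for them. At its lowest fibroblast level, on day 2, Acta2 was at 195.5 FPKM, and in these blood libraries at most 1.87 FPKM. Cyr61 came closer, at 24.4 FPKM in fibroblasts at day 2 against 13.1 in MP 4D. Thbs1 in MP 4N, a library outside this fit, was at 70.3 FPKM against 69.9 in fibroblasts at day 2. Library method and cell type cannot be told apart in this comparison, and its p-values treat conditions and blood cell types as the replicates.

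Last, the change from uncultured to D was compared between fibroblasts and blood cells in the same libraries. Of the 9 genes, 2 were called more downward in fibroblasts, Cnn1 (-4.68 ± 0.732, limma adjusted p = 0.0219) and Ctgf (-4.82 ± 0.753, limma adjusted p = 0.0219), and none upward. Of 13235 genes, 0.521% were lower and 0.423% higher. For Cnn1, Ctgf and Myl9 all blood libraries of this fit were listed at 0 and added no spread. They passed the filter through fibroblasts alone, so for them the difference restates the fibroblast fall. Their test rests on the 3 fibroblast libraries and on spread borrowed from other genes, so the 2 calls are a description and add no support. In fibroblasts the 2D and 4D libraries stood in for replicates of D, against 1 uncultured library. Acta2 (-3.99), Tpm1 (-2.70 ± 0.581) and Myl9 (-3.54) did not pass, with limma adjusted p = 0.0708, 0.0708 and 0.0750. Tagln (-3.94, limma adjusted p = 0.152), Cyr61 (-4.75, 0.204), Thbs1 (-1.88, 0.513) and Tpm2 (-1.81, 0.680) did not pass either.

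The Cnn1 and Ctgf calls were both lost without LT-HSC (limma adjusted p = 0.0963) or without MP (0.0631), without the 2D libraries (0.552) and without the 4D libraries (0.657). Among the pathway genes, Lmod1 (-4.22, limma adjusted p = 0.0331), Tpm4 (-3.92, 0.0151), Ankrd1 (-5.22, 0.0178), Amotl2 (-3.86, 0.0479) and Wisp2 (-5.35, 0.0230) passed in the same direction. Lmod1, Ankrd1 and Wisp2 were listed at 0 in all 15 blood libraries and passed the filter through fibroblasts alone, so for them the difference restates the fibroblast fall. Tpm4 and Amotl2 were the 2 of these 5 that also rose with doxycycline against N in blood cells. All 5 missed without LT-HSC (adjusted p 0.0849 to 0.130), without MP (0.0625 to 0.0802), without 2D or without 4D, and Lmod1 (0.0531) and Amotl2 (0.0573) also missed without ST-HSC.

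Genes with the most similar pattern were ranked by Pearson's r with the mean standardised level of the 9 genes. Over 18 libraries they were Osr1 (r = 0.993), Loxl4 (0.992), Tnc (0.992), Inhba (0.992) and Adam23 (0.991). Tnc, which encodes the matrix protein tenascin C, was at 870.8 FPKM in uncultured fibroblasts, 22.9 at day 2, 40.9 at day 4 and at most 0.347 in blood. These values are carried by the contrast of 3 fibroblast libraries with 15 blood libraries and their different library method. Between pairs of members r ran from 0.55 (Tpm1 with Thbs1) to 0.99 (Cnn1 with Ctgf), with a median of 0.84 over 36 pairs.

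Within the 15 blood libraries the correlations between members were of mixed sign. Cnn1 was above 0 in 1 of these libraries, Acta2 and Tpm2 in 5 and Cyr61 in 6. With so many values at 0, r cannot show whether the members shared a course. Over the 7 members above 0 in blood, r ran from -0.44 (Tpm1 with Thbs1) to 0.70 (Acta2 with Thbs1, both highest in MP 4N), with a median of -0.15 over 21 pairs. The most similar other genes were Hmgb1 (0.810), Gnl1 (0.773), Kcnq5 (0.771), Mgat4b (0.749) and Hif1an (0.747).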

How the data were processed

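The authors mapped reads with TopHat and computed FPKM with Cufflinks on mm9, per the submitters' processing notes; neither versions nor an annotation are named there. The deposited table held FPKM for 36818 rows; symbols on several rows (158) were summed. Read counts could not be recovered: at most 2.82% of 142 low genes shared 1 ratio between fibroblast libraries (within 1%).

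Libraries were grouped by title. Tests used limma 3.58.1 (trend and robust, two-sided) in R 4.3.3 on log2(FPKM + 1), keeping genes whose FPKM averaged 1 or more across a fit's libraries, with Benjamini-Hochberg adjustment over all genes tested and a threshold of 0.05. Fold changes on this scale understate the change of low genes. D against N carried a term for each pair of cell type and day; other fits carried cell type or condition. Fibroblasts have no replicates, and differences among the fibroblast libraries alone were not tested. Where fibroblasts were set against blood cells, conditions and cell types stood in for replicates.

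The members and the gene and marker lists were chosen with earlier results of these data known. Of the lists, 122 genes were matched by symbol and 6 by Ensembl ID. All 9 members are named in each comparison that tested them. From each pathway list the text names up to 4 genes with the largest difference past the threshold in D against N (or 2 with the smallest p), and beyond them genes picked with their values in view, as the text says; Axl and the fibroblast examples in the YAP, machinery and relatives lists are of that kind. The results of 1 further list are not reported here. Similar genes are the 5 with the highest r. Scripts were tested on simulated data. Alternatives were another pseudocount, no filter, median-of-ratios scaling, limma without trend and robust, no pair term, and leaving out libraries; leaving out a condition across cell types was chosen after seeing the data.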

Additional observations from a re-analysis of the deposited data

Results flagged for a closer look

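Tpm2 in ST-HSC 2N, at 2.87 FPKM, stood apart from the other 5 N libraries of blood cells, all listed at 0. With the others at 0, any value above 0 would have stood apart in this way. It was 1 of 11 checks, and the chance rate of about 1 in 20 for such checks does not carry over to a set of zeros.

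The change from uncultured to D differed between fibroblasts and blood cells for Cnn1 (log2 difference -4.68) and Ctgf (-4.82) by the interaction term of the limma fit (adjusted p = 0.0219 for both). Both genes were at 0 in every blood library of that fit, so the difference restates the fibroblast fall and the calls add no support. Both calls were lost when LT-HSC or MP was left out.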

How the results depend on the processing

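In fibroblasts all 9 genes kept their direction under a pseudocount of 0.1 and median-of-ratios scaling; the latter moved the all-gene median from 0.31 to -0.04 and gave 9 falls of -2.02 to -5.20. Fibroblasts against blood kept every call, which adds no support for Myl9, Ctgf, Cnn1, Acta2 and Tagln, which passed that filter through fibroblasts alone. Cyr61 in D against N passed under each setting that used all pairs, which adds no support because it was listed at 0 in all N libraries. With a pseudocount of 0.1 the Cnn1 (adjusted p = 0.244) and Ctgf (0.249) calls on the change were lost. Acta2, Myl9 and Tpm1 passed there with no filter (0.0246, 0.0139 and 0.0468) and with median of ratios (0.0400, 0.0399 and 0.0479), and Acta2 (0.0274) and Myl9 (0.0149) also without trend and robust, so which members pass depends on the setting. Depth is unknown, so values near 0 cannot be given a limit.

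The replicate block here is the pair of cell type and day; without it 569 genes were higher and 526 lower, and Cyr61 stood at 0.0112. Myh9 was lost without the pairing (0.0947). The pair rests on cell type and day alone, since every condition is 1 library.

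Values that changed sign, none past the threshold: day 4 against day 2, Acta2 0.58 and Thbs1 1.28 (pseudocount 0.1); N against uncultured, Thbs1 -0.031 (pseudocount 0.1) and -0.16 (median of ratios). With libraries left out, Thbs1 ran from -0.49 to 0.66 (day 4 against day 2, above 0 without MP), -1.001 to 0.91 (N against uncultured, below 0 without MP) and -0.42 to 0.91 (MP against stem cells, below 0 without 4N). The cause was not tested.

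Counts over all genes moved more. N against uncultured gave 402 higher and 234 lower with no filter, 448 higher with median of ratios, and 234 higher and 186 lower without trend and robust. MP against stem cells gave 1 higher and 12 lower with no filter, 2 higher with median of ratios, and 0 higher and 13 lower without trend and robust. The change with D gave 30 higher and 30 lower with a pseudocount of 0.1, 165 and 390 with no filter, 125 lower with median of ratios and 130 lower without trend and robust. The fibroblast 4-fold rule gave 775 higher with a pseudocount of 0.1. With libraries left out, counts higher and lower ran from 307 to 493 and 222 to 549 (D against N, lowest without the MP day 2 pair), 13 to 782 and 39 to 412 (N against uncultured, lowest without ST-HSC), 0 to 4 and 0 to 39 (MP against stem cells), 1347 to 2297 and 1122 to 1758 (fibroblasts against blood), and 0 to 95 and 0 to 67 (change with D).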
